A study of Mus musculus with 5 samples.

Results

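Making a ribosome begins in the nucleolus, where RNA polymerase I transcribes the long ribosomal RNA precursor. Small nucleolar ribonucleoproteins (snoRNPs) then modify the precursor and help to cut it, assembly factors fold the 2 subunits around it, and the subunits leave the nucleus for final cleavage in the cytoplasm. Haematopoietic stem cells (HSCs), the cells that sustain the blood, are known for a low and tightly held rate of protein synthesis, and MYC is a known activator of many of these genes. The 40 genes described here are ribosome biogenesis and nucleolar factors chosen by symbol, out of 35976 gene rows, and each of the 40 was a row of the count table. They were read by step: 7 of RNA polymerase I, 9 of snoRNPs, 8 of the small subunit, 10 of the large subunit, 3 abundant nucleolar proteins with several tasks, and 3 that take part in export.

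The libraries were made by Smart-seq2 from 30 bone marrow HSCs each, sorted as Lin- Sca-1+ c-kit+ CD34- CD150+ cells of C57BL/6 mice. By their labels 2 are WT and 3 are Ythdf3-/-, without the gene of an m6A-binding protein of the cytoplasm; the sources used here give neither the allele nor the age of the mice. The series text reverses these numbers (2 knockout, 3 wild type) and assigns each sample to a mouse of its own. Counts of Ythdf3 were 20 for WT 1 and 29 for WT 2, but 339 and 366 for the libraries labelled Ythdf3-/- 2 and 3, and 2 for Ythdf3-/- 1, so they go against the labels. Libraries are therefore named by their label alone, and a direction between the groups refers to those labels only. Where 2 values are followed by 3, they are those of WT 1 and 2, then of Ythdf3-/- 1, 2 and 3; paired means with ± are given with the SD, n = 2 and n = 3.

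Totals ran from 6357862 to 16650134 counts per library, and 1 count was worth between 0.0601 and 0.157 CPM (counts scaled to a library total of 1000000). Of 15 HSC markers, between 13 and 15 had at least 10 counts in a library. The sort marker Slamf1, which encodes CD150, had 1 count in the library labelled WT 2 and 211 to 482 in the others. The summed level of 18 mitosis genes was 953 CPM in the library labelled WT 2 and 40.5 to 213 CPM in the other 4. Every library, WT 2 included, had between 1 and 6 of the 18 at 0. At least 10 counts were reached by 13 of the 18 for WT 2 and by 14 for WT 1. These numbers are not at equal depth, as the totals were 8968162 and 16650134 counts. Erythroid markers (12 genes) summed to 37849 CPM in the library labelled Ythdf3-/- 1, nearly all from globins, and to 1973 to 3045 CPM elsewhere, mostly from Car2. The erythroid regulator Gata1 had 1061 counts in the library labelled WT 2 and at most 6 in the others. Car1 had 4093 counts in that library and 19 to 24 in the others. Hba-a1 stood at 272 CPM for WT 2, at 18524 CPM for Ythdf3-/- 1 and at 16.1 to 46.2 CPM in the rest. At least 10 counts were reached by 11 of the 12 erythroid markers for WT 2, by 10 for Ythdf3-/- 1 and by 7 in each of the rest. B lymphoid markers (9 genes) summed to 564 and 1303 CPM in the libraries labelled WT 1 and Ythdf3-/- 1 and to 57.1 to 219 CPM in the rest. Myeloid markers (12 genes) summed to 476 to 1156 CPM, most of it from Lyz2, with Csf1r at 0 in 4 libraries. Megakaryocyte markers (7 genes) summed to 155 to 287 CPM. The part of these cell types and of cell division in the results below was not tested beyond leaving libraries out. In bulk samples, fewer cells of a type and less RNA per cell cannot be told apart.

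Several of the genes carry part of the machinery they build. In the GENCODE M21 annotation of mm10, 7 of the 40 (17.5%) hold snoRNA genes on their own strand, namely Nop56, Nop58, Dkc1, Wdr43, Ppan, Gnl3 and Ncl, with 21 snoRNA genes between them. Among tested protein-coding genes of the table the share was 1.79% (173 of 9667). Box C/D snoRNAs from 4 of these hosts are printed 5′ to 3′, written with T, from the GENCODE transcripts; capitals mark the first TGATGA near the 5′ end (box C) and the last CTGA near the 3′ end (box D), the elements that fibrillarin, NOP56 and NOP58 bind around. They are shown because hosts and snoRNP proteins stand side by side in the results.
Snord69, in Gnl3 (chr14:31014287-31014366, minus strand): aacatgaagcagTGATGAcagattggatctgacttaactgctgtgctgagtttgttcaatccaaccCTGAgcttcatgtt
Snord11, in Nop58 (chr1:59704790-59704873, plus strand): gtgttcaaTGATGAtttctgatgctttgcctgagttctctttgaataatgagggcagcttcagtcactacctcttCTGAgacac
Snord82, in Ncl (chr1:86356261-86356330, minus strand): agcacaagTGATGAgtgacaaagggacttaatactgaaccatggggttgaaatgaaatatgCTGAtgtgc
Snord92, in Wdr43 (chr17:71631281-71631365, plus strand): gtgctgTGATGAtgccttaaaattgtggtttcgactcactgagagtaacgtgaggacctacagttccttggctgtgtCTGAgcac
The snoRNAs printed had few or no counts. Snord11 and Snord82 had 0 counts in each library, and Snord69 had 21 in the library labelled WT 1 and 0 elsewhere. Snord92 was read 58 and 54 times under the WT label and 0 times under the other, where a count of 0 allows up to 0.472 CPM in the shallowest library. It is 85 bases long, shorter than the reads of 150 bases, and lies inside Wdr43. Its counts therefore cannot be told apart from reads of unspliced host RNA and are not a measure of the snoRNA. Of the 21 snoRNA genes, 11 have a row of their own in the table, with at most 58 counts in a library, and 10 do not. The values below are those of the host rows.

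Promoter windows of 300 bases, from 250 before to 50 after the start, were in the RefSeq table (GRCm38.p6) for 35 of the 40 genes. The E-box CACGTG, the letters that MYC and other factors of its class bind, was found in 7 of the 35 (20.0%), against 12.2% of tested genes and 8.09% of all genes in that table; it reads the same on both strands. The letters ACTTCCGG, of the ETS class, were found on either strand in 8 of 35 (22.9%), against 9.77% of tested and 4.31% of all genes, and the palindrome TCTCG followed by CGAGA in 0 of 35, against 1.24% and 0.525%. The 3 motifs were chosen after expression values had been seen, and a match describes only the letters in a window. Promoters of the Rrn3 and Nop10 genes are printed, as both had lower values in every library labelled Ythdf3-/- than in those labelled WT. The same held for Gnl3, whose window has 0 E-boxes and is not printed, and for Fbl, which had no window. Capitals mark the E-boxes, of which Rrn3 has 2, starting 215 and 48 bases before its start, and Nop10 has none.
Rrn3 (chr16:13780449-13780748, plus strand): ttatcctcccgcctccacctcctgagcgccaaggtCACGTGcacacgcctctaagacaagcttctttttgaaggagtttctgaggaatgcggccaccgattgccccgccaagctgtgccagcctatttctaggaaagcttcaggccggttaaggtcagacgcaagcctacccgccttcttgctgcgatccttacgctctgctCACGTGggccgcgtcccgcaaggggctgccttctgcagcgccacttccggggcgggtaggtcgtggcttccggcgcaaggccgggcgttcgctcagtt
Nop10 (chr2:112261676-112261975, plus strand): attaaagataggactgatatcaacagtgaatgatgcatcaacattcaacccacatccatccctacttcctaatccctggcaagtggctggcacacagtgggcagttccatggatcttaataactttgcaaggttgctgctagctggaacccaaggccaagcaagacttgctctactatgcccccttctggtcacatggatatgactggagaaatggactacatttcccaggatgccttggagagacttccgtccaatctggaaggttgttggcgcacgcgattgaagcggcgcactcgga

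Taken over both labels, ribosome biogenesis genes were read in every library but unevenly. The 40 genes took 0.549% of counts for WT 1, 0.798% for WT 2, and 0.506%, 0.637% and 0.468% for the libraries labelled Ythdf3-/- 1, 2 and 3. The 95% Wilson intervals cover counting error only and are narrow beside these differences, at 0.792% to 0.803% for the library labelled WT 2. The mean was 0.673 ± 0.176% (SD, n = 2) under the WT label and 0.537 ± 0.0885% (SD, n = 3) under the Ythdf3-/- label, with overlapping groups. The difference of -0.136 percentage points became -0.0119 without the library labelled WT 2, so it rests on that library. Npm1 alone made up 20.5% of the counts of the 40 genes in the library labelled WT 2 and 6.76% to 13.8% in the others.

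No gene of the 40 passed the test between the labels. In edgeR's quasi-likelihood test 0 of the 40 had an adjusted p under 0.05 (0.00% of all 11146 tested genes did), and 1, Nop10, had an unadjusted p under 0.05 (4.85% of tested genes). DESeq2 called 0 of the 40 and 4.59% of the genes to which it gave an adjusted p, and limma voom called 0. Fitted levels were lower under the Ythdf3-/- label for 23 genes and higher for 17, with a median log2 fold change of -0.17. Of all tested genes 5813 were lower and 5333 higher, with a median of -0.06. Groups did not overlap in CPM for 4 genes that were lower (11.0% of tested genes) and 3 that were higher (9.74% of tested genes) under the Ythdf3-/- label. As 4 and 3 of 40, these shares are near the background.

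**Figure D1:**
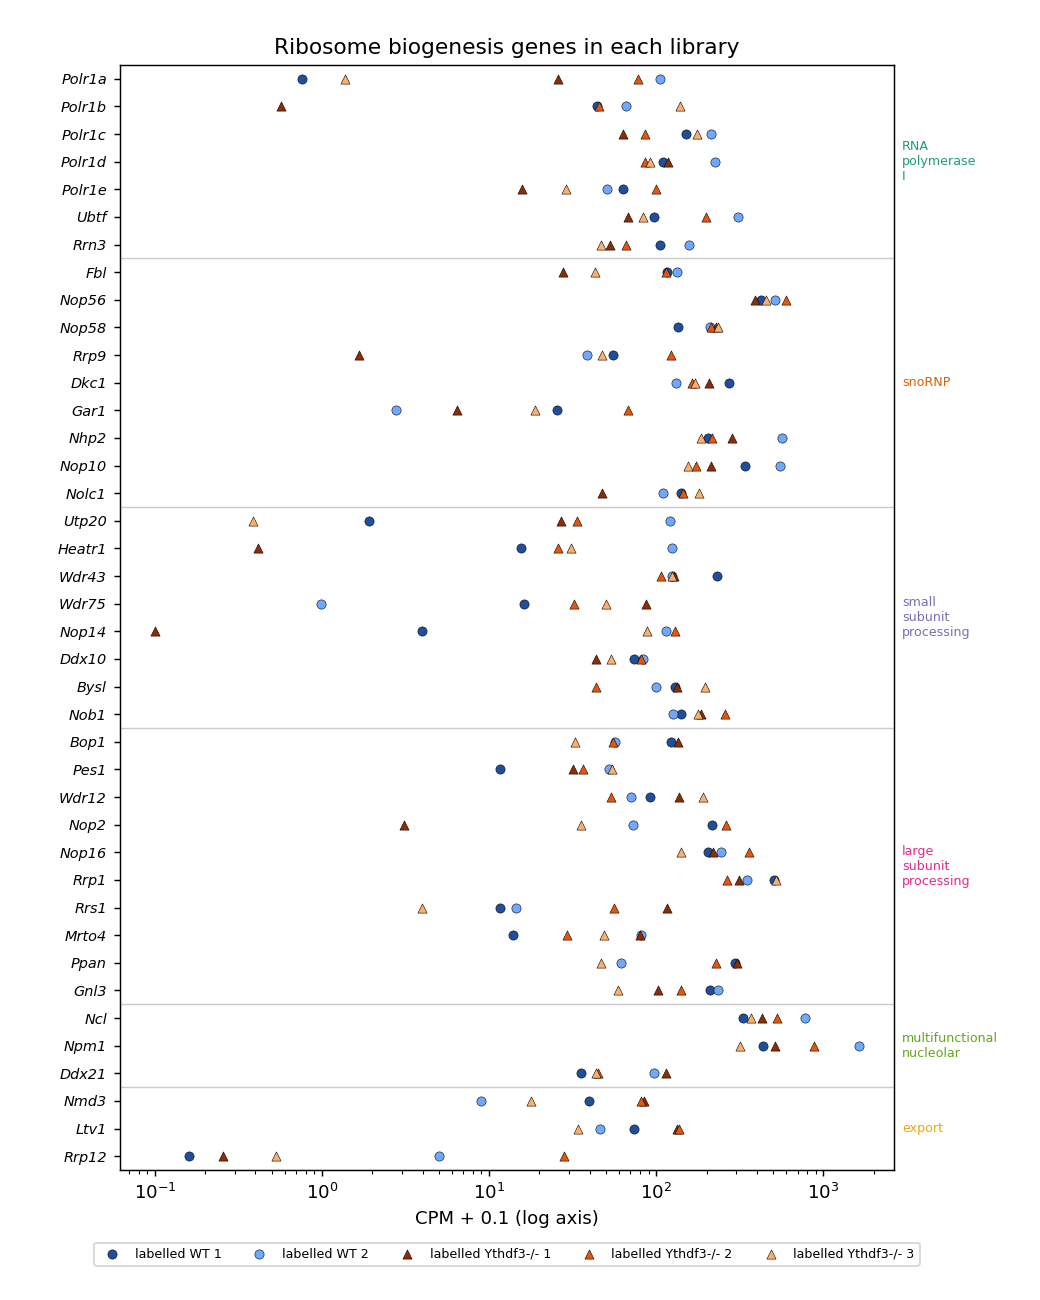
CPM of the 40 genes in the 5 libraries, with 0.1 added and drawn on a log axis; circles are libraries labelled WT and triangles libraries labelled Ythdf3-/-, grouped by step. Nop56, Nop58 and Ddx10 lie in a narrow band over the 5 libraries, while Polr1a, Nop14, Utp20 and Rrp12 differ by orders of magnitude within 1 label.

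Libraries of 1 label differed widely in these genes. The within-label SD of log2(CPM + 1) had a median of 0.914 over the 40 genes, against 1.38 over all tested genes. It was under 0.3 for Nob1, Nop58 and Nop56 (0.250, 0.267 and 0.281) and above 2 for 8 genes, Nop14 (3.69), Polr1a, Utp20, Polr1b, Nop2, Heatr1, Rrp9 and Rrp12. The 20 genes with a mean of at least 100 CPM had a median SD of 0.554, and the 20 below had 1.37. Of all 11146 tested genes only 2348 had a mean of at least 100 CPM. The medians of 0.914 and 1.38 are therefore over genes of unlike level. Across the 40 genes, which share libraries and depth, Spearman's rho between mean CPM and this SD was -0.67, given as a description. In the library labelled WT 2, 15 of the 40 genes (37.5%) had their highest CPM, against 22.9% of all tested genes. In the library labelled WT 1, 2 of the 40 (5.0%) did, against 19.8%.

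RNA polymerase I makes the ribosomal RNA precursor, and its genes gave lower fitted levels under the Ythdf3-/- label for 6 of 7 without passing the test. Their median log2 fold change was -0.85, and -0.19 without the library labelled WT 2. Rrn3 encodes TIF-IA, which recruits the polymerase to the ribosomal DNA promoter and couples it to growth signals. It stood at 105 and 157 CPM in the libraries labelled WT and at 52.7, 65.8 and 46.5 CPM in those labelled Ythdf3-/- (chromosome 16, 13780708 to 13814839). Each library labelled Ythdf3-/- was below both labelled WT, with a log2 fold change of -1.35 (SE 0.68, edgeR adjusted p = 0.983). Polr1d, a small subunit shared with RNA polymerase III (chromosome 5, 147077050 to 147111597), stood at 109.6 and 223 CPM and at 118, 85.5 and 91.8 CPM. Those groups overlapped, and the log2 fold change of -0.86 (SE 0.58, edgeR adjusted p = 0.9998) became -0.19 without the library labelled WT 2.

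The large catalytic subunits were patchy. Polr1a, the largest subunit, had 11 counts for WT 1 and 947 for WT 2, then 163, 701 and 9 for the libraries labelled Ythdf3-/-. Polr1b, the second largest, had 738 and 589 counts, then 3, 413 and 978. The library that lacked one of the pair was not the library that lacked the other: Polr1a was at 0.661 and 1.28 CPM in the libraries labelled WT 1 and Ythdf3-/- 3, where Polr1b stood at 44.3 and 139 CPM. Polr1c, the other subunit shared with RNA polymerase III, averaged 181 ± 44.4 CPM (SD, n = 2) and 108 ± 59.0 CPM (SD, n = 3). Polr1e, which acts in initiation, averaged 56.7 ± 8.95 and 48.1 ± 45.2 CPM. Ubtf, the factor that binds along active ribosomal DNA, stood at 97.1 and 307 CPM and at 67.9, 198 and 83.5 CPM, highest in the library labelled WT 2. Without that library the log2 fold change of Ubtf went from -0.90 to 0.23.

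The snoRNP genes held the smallest unadjusted p of the 40, that of Nop10. Box H/ACA snoRNPs guide the conversion of uridine to pseudouridine and consist of dyskerin (Dkc1), Gar1, Nhp2 and Nop10, proteins that telomerase also contains. Nop10 (chromosome 2, 112261926 to 112263269), the smallest of the core proteins, stood at 341 and 546 CPM in the libraries labelled WT and at 211, 173 and 154 CPM in those labelled Ythdf3-/-. The groups did not overlap, with a log2 fold change of -1.40 (SE 0.40, edgeR unadjusted p = 0.00784, adjusted p = 0.964). Over the alternatives the adjusted p of Nop10 ran from 0.0991 in DESeq2 to 1.0 in edgeR with a replicate block, and its log2 fold change from -1.74 to -0.97. Nhp2 (chromosome 11, 51619735 to 51623714) stood at 205 and 565 CPM and at 285, 215 and 185 CPM, with a log2 fold change of -0.86 (SE 0.50, edgeR adjusted p = 0.9998). It was high in the library labelled WT 2, without which the fold change was 0.12.

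The groups of Dkc1 overlapped. It stood at 272 and 131 CPM, then at 206, 164 and 171 CPM, with a log2 fold change of -0.24. Gar1 stood at 25.5, 2.68, 6.29, 67.8 and 18.7 CPM over the libraries in the same order. Levels per kilobase of the principal transcript set genes side by side only as far as that transcript is the one read, which was not tested. It is long for some other genes (8202 bases for Ncl, 10012 for Wdr12), and this scale is given only for the snoRNP core genes. Nop10 had 308 and 493 CPM per kilobase, then 190.5, 156 and 139, in the same order of libraries. Dkc1 had 97.1 and 46.9, then 73.4, 58.5 and 60.8, and Gar1 had 20.0 and 2.11, then 4.95, 53.3 and 14.7. Nhp2 had 197 and 542, then 274, 207 and 178. Per length, Nop10 was above Dkc1 and Gar1 in each library, and Nhp2 was above Nop10 in each but that labelled WT 1. The span of Dkc1 shares 45 exonic bases with Mpp1, and that of Nhp2 44 with Rmnd5b, each on the opposite strand.

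Box C/D snoRNPs guide 2′-O-methylation, carried out by fibrillarin (Fbl) with Nop56 and Nop58 as its scaffold. Nop56 was among the steadiest genes at 426 and 516 CPM under the WT label and 389, 599 and 452 CPM under the Ythdf3-/- label. Nop58 stood at 135 and 211 CPM and at 227, 212 and 233 CPM. Its groups did not overlap, though the libraries labelled WT 2 and Ythdf3-/- 2 nearly met, and its log2 fold change was 0.28 (SE 0.44). Without the library labelled WT 1 that of Nop58 was -0.04. Fbl stood at 115.2 and 132 CPM and at 27.7, 114.8 and 42.9 CPM. Its groups also just failed to overlap, with the libraries labelled WT 1 and Ythdf3-/- 2 almost level, and its log2 fold change was -1.09 (SE 0.81). Per kilobase Nop56 lay above Fbl and Nop58 in each library, with 207 to 319 CPM against 23.1 to 111 and 78.8 to 136.

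The remaining snoRNP genes showed no separation. Rrp9, a protein of the U3 snoRNP that starts small subunit processing, had 910 and 344 counts, then 10, 1107 and 333. Nolc1, a chaperone that carries snoRNPs between Cajal bodies and the nucleolus, averaged 125 ± 21.3 and 124 ± 69.0 CPM. Over the 9 genes 6 were lower and 3 higher, with a median of -0.10; Nop56, one of the 6, turned to 0.024 when scaled by library totals alone.

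**Figure D2:**
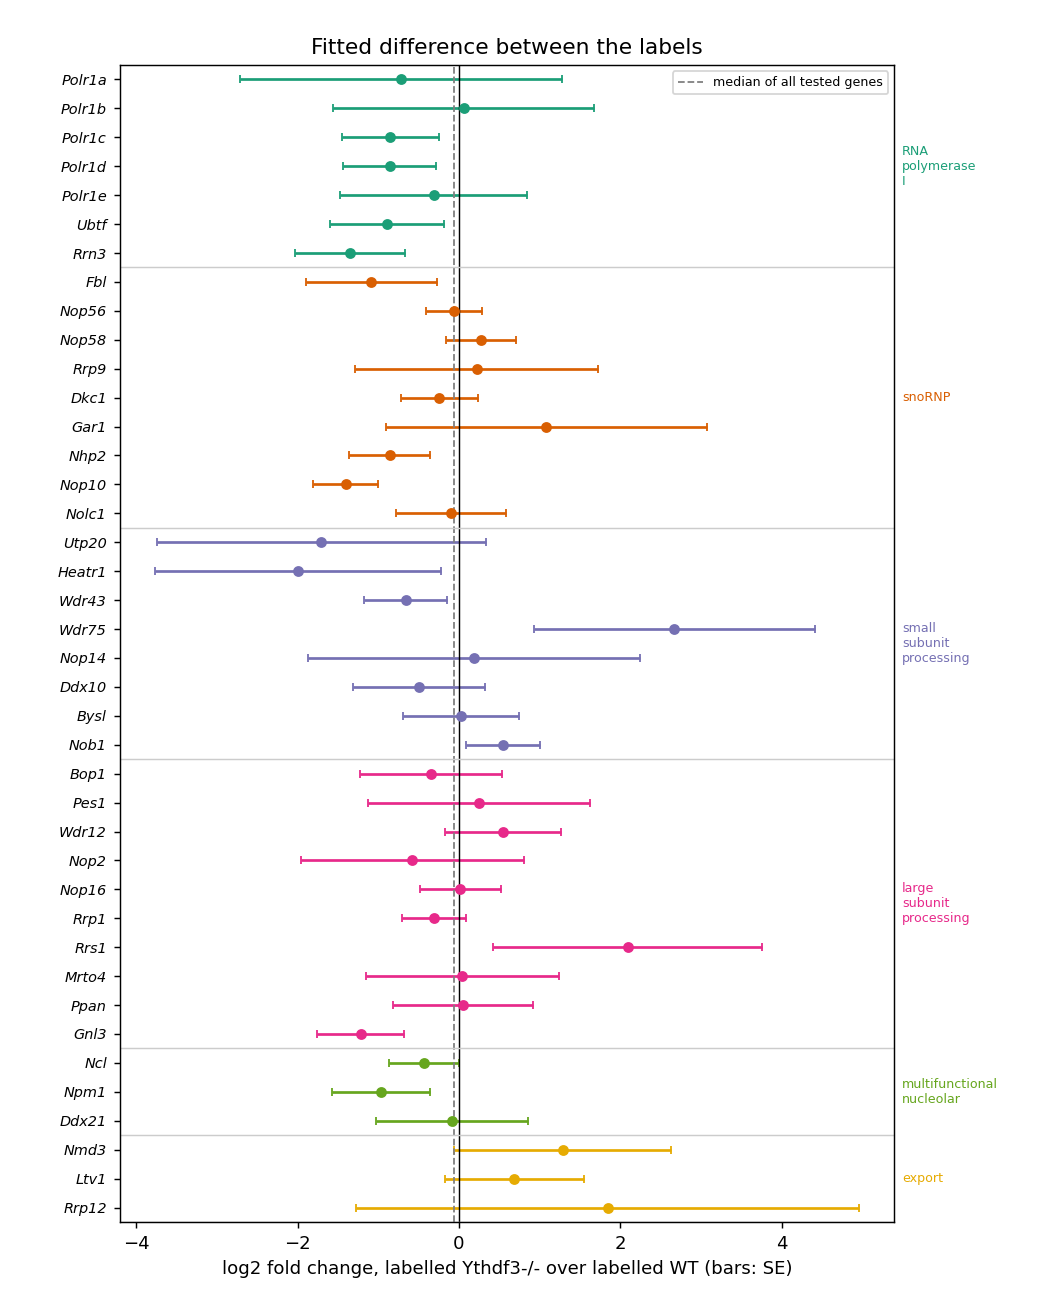
Log2 fold change of each gene from edgeR, labelled Ythdf3-/- over labelled WT, with bars of 1 SE, coloured by step; the dashed line is the median of all tested genes. Nop10 (-1.40), Gnl3 (-1.22) and Rrn3 (-1.35) lie lowest relative to their SE, and the bars of Nop56, Nolc1, Nop16 and Rrp12, among others, cross 0.

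Small subunit processing held both the highest and the lowest log2 fold change of the 40, those of Wdr75 and Heatr1, and each of these genes had under 10 counts in 1 library. Wdr75, a protein of the t-UTP group that links transcription to processing (chromosome 1, 45795166 to 45823619), was counted 266 and 8 times under the WT label and 549, 292 and 350 times under the other. In CPM these are 16.0 and 0.892 against 86.3, 32.2 and 49.9, and the groups did not overlap. The log2 fold change was 2.67 (SE 1.74, edgeR adjusted p = 0.9998), and 1.77 without the library labelled WT 2. Wdr43, of the same group (chromosome 17, 71615895 to 71659031), stood at 232 and 124 CPM and at 127, 107 and 124 CPM. Its library labelled WT 1 was high and the other 4 were alike, with a log2 fold change of -0.66 (SE 0.51, edgeR adjusted p = 0.9998).

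Heatr1, also of the t-UTP group, had 257 and 1112 counts, then 2, 235 and 215. Utp20, a very large scaffold of the processome, had 30 and 1076 counts, then 171, 302 and 2. Nop14, another part of the processome, had 64 and 1021 counts, then 0, 1172 and 618; a count of 0 in the library labelled Ythdf3-/- 1 allows up to 0.472 CPM. Of these 3, Heatr1 and Utp20 were highest in the library labelled WT 2, and Nop14 was nearly as high there as in the library labelled Ythdf3-/- 2. Without the library labelled WT 2 the log2 fold change of Heatr1 went from -2.00 to 0.27 and that of Utp20 from -1.71 to 3.43.

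Nob1 had the smallest within-label SD of the 40 genes. It encodes the endonuclease that makes the final cut of 18S ribosomal RNA and stood at 141 and 125 CPM under the WT label and at 184, 257 and 177 CPM under the Ythdf3-/- label. Each library labelled Ythdf3-/- was above both labelled WT, by a log2 fold change of 0.55 (SE 0.46) that did not pass. Bysl, which acts in the assembly of the small subunit, averaged 114 ± 20.4 and 124 ± 76.9 CPM; it shares 361 exonic bases with Ccnd3 on the opposite strand. Ddx10, a helicase, averaged 78.1 ± 7.01 and 58.9 ± 19.3 CPM. In all, 4 of the 8 genes were lower and 4 higher, with a median of -0.23.

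Large subunit genes divided 4 lower to 6 higher, with a median of 0.03. Gnl3, or nucleostemin, a nucleolar GTPase known from stem and tumour cells (chromosome 14, 31012433 to 31019152), stood at 209 and 233 CPM under the WT label and at 103, 140.2 and 59.3 CPM under the Ythdf3-/- label. The groups did not overlap, with a log2 fold change of -1.22 (SE 0.54, edgeR adjusted p = 0.983). Leaving out each library in turn or using other settings kept it between -1.55 and -0.94. Rrs1, which brings 5S ribosomal RNA into the large subunit (chromosome 1, 9545408 to 9547455), had 191 and 129 counts, then 740, 503 and 27. The library labelled Ythdf3-/- 3 was the lowest of all, and the log2 fold change was 2.09 (SE 1.67, edgeR adjusted p = 0.9998).

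The PeBoW complex, needed to process the 28S and 5.8S precursors, is made of Pes1, Bop1 and Wdr12. Pes1 stood at 11.5 and 52.1 CPM and at 31.8, 36.5 and 54.3 CPM. Bop1 stood at 122 and 56.5 CPM and at 135, 55.3 and 32.5 CPM, and Wdr12 at 91.5 and 70.9 CPM and at 137, 53.2 and 189.7 CPM. Pes1 and Wdr12 were highest in the library labelled Ythdf3-/- 3, where Bop1 was lowest. Nop2, a methyltransferase of 28S ribosomal RNA, had 3572 and 654 counts, then 19, 2381 and 247. Ppan, an early assembly factor, averaged 179 ± 166 and 193 ± 133 CPM. Mrto4, a placeholder for a protein of the ribosomal stalk, averaged 47.1 ± 47.1 and 52.6 ± 25.9 CPM. Nop16 and Rrp1 had at least 141 CPM in each library. Nop16 averaged 224 ± 29.4 and 240.3 ± 111 CPM, and Rrp1 averaged 427 ± 109 and 365 ± 133 CPM.

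Npm1, Ncl and Ddx21 are abundant nucleolar proteins that act in several steps. Npm1, nucleophosmin, a histone and ribosome chaperone (chromosome 11, 33152287 to 33163206), stood at 435 and 1637 CPM under the WT label and at 514, 880.4 and 316 CPM under the Ythdf3-/- label. Ncl, nucleolin (chromosome 1, 86344719 to 86359400), stood at 331 and 780.1 CPM and at 429.9, 528 and 368 CPM. Both were highest in the library labelled WT 2, and in both the library labelled WT 1 lay below that labelled Ythdf3-/- 2. The log2 fold changes were -0.96 for Npm1 (SE 0.61) and -0.43 for Ncl (SE 0.43), each with an edgeR adjusted p of 0.9998. Without the library labelled WT 2 they became 0.36 and 0.38. Ddx21, a helicase of polymerase I and II transcription and rRNA processing, averaged 66.4 ± 43.7 and 67.3 ± 40.2 CPM.

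Export genes had 3 of 3 fitted levels higher under the Ythdf3-/- label, with overlapping groups in each. Their median was 1.28, and 0.60 without the library labelled WT 2. Nmd3, the adaptor that takes the large subunit to the exportin CRM1 (chromosome 3, 69721985 to 69756373), stood at 39.3 and 8.81 CPM and at 84.1, 81.4 and 17.7 CPM. Its log2 fold change was 1.28 (SE 1.35, edgeR adjusted p = 0.9998). Ltv1, a factor of late small subunit assembly and export (chromosome 10, 13178140 to 13193168), stood at 73.9 and 45.7 CPM and at 132, 137 and 34.1 CPM, with a log2 fold change of 0.68 (SE 0.86, edgeR adjusted p = 0.9998). In both genes the libraries labelled Ythdf3-/- 1 and 2 were high and that labelled Ythdf3-/- 3 was low. Rrp12, which takes part in the export of both subunits, had 1 and 44 counts, then 1, 255 and 3, so its value rests on the library labelled Ythdf3-/- 2.

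**Figure D3:**
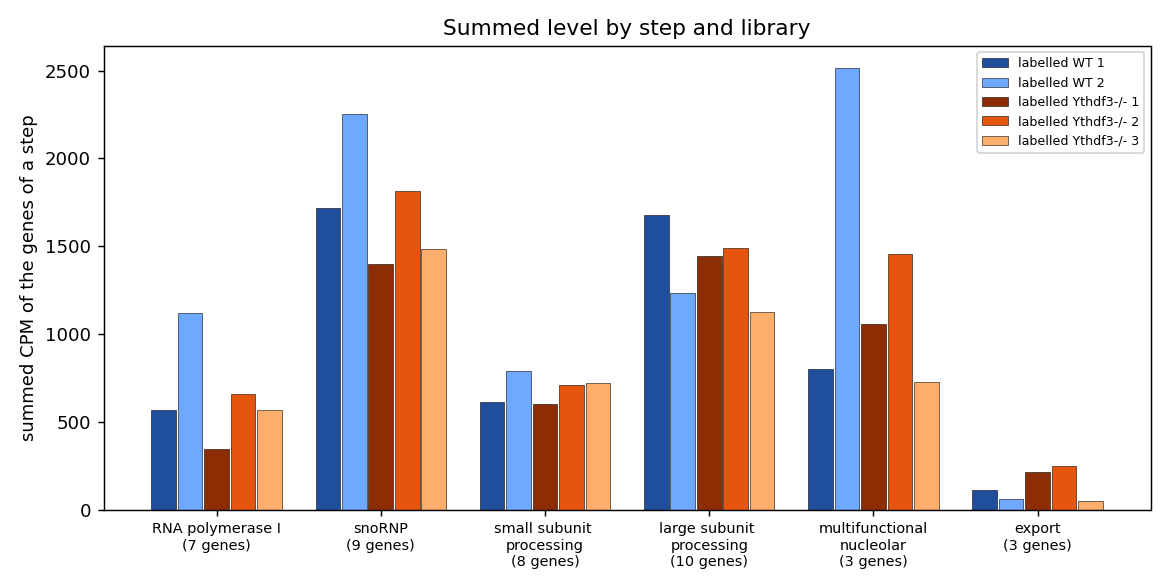
Summed CPM of the genes of each step in the 5 libraries. RNA polymerase I (1122 CPM), snoRNP (2253 CPM), small subunit (791 CPM) and multifunctional nucleolar genes (2515 CPM) were highest in the library labelled WT 2, while large subunit genes were highest in that labelled WT 1 (1677 CPM) and export genes in that labelled Ythdf3-/- 2 (247 CPM).

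Summed by step, the library labelled WT 2 stood above the rest for RNA polymerase I at 1122 CPM, against 344 to 657 CPM in the other 4. Small subunit genes summed to 601 to 791 CPM over the 5 libraries. Their single genes were not level: the median within-label SD of log2(CPM + 1) was 1.17, against 0.914 over the 40 genes. Of the 8 genes, 4 had under 10 counts in a library. Large subunit genes summed to 1677 and 1236 CPM under the WT label and to 1443, 1487 and 1128 CPM under the Ythdf3-/- label. The 7 snoRNA hosts together summed to 1453 to 2057 CPM. The nucleolar proteins summed to 2515 CPM in the library labelled WT 2 and to 728 to 1453 CPM elsewhere. That library also had the most mitosis message and the most Gata1, while large subunit and export genes were not highest there. Whether these levels are related was not tested, and they come from 1 library.

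**Figure D4:**
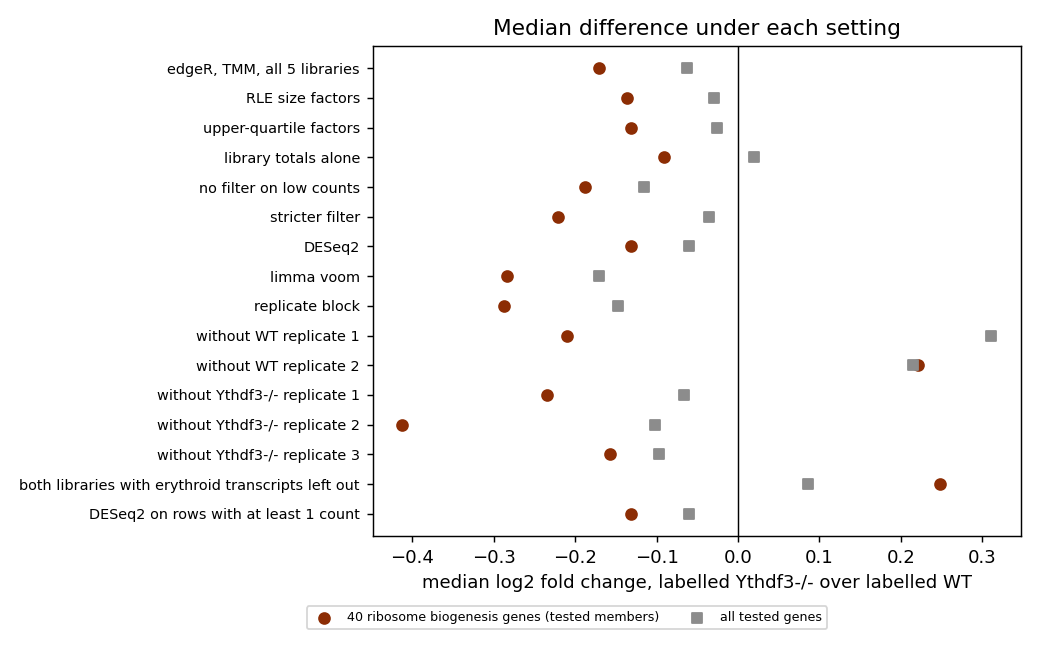
Median log2 fold change of the ribosome biogenesis genes (circles) and of all tested genes (squares) under each setting; 40 genes were tested in each but the stricter filter and the fit without Ythdf3-/- replicate 2, where 39 were. The circles turn from -0.17 with all libraries to 0.22 without WT replicate 2, beside 0.215 for all tested genes.

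The direction of the whole group depended on 1 library. Without the library labelled WT 2, 16 of the 40 genes were lower and the median log2 fold change was 0.22, beside a median of 0.215 over all tested genes. Without the library labelled WT 1 the medians parted, at -0.21 for the 40 genes and 0.31 for all tested genes. Without both the library labelled WT 2 and that labelled Ythdf3-/- 1, the median was 0.25. These 3 fits each leave 1 library labelled WT, which is assumed to vary like the others. Without any other single library the median stayed between -0.41 and -0.16.

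Myc encodes a known activator of these genes. It stood at 344 and 238 CPM in the libraries labelled WT and at 1028, 737 and 755 CPM in those labelled Ythdf3-/-, so every library labelled Ythdf3-/- was above both labelled WT (log2 fold change 1.45, SE 0.34, edgeR adjusted p = 0.964). The library with the least Myc, that labelled WT 2, had the largest share of counts in the 40 genes. Whether Myc and the level of these genes are related in these libraries was not tested.

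A wider list of 110 other ribosome biogenesis genes in the table, of which 108 were tested, divided evenly. Fitted levels were lower for 54 and higher for 54, with a median of -0.02 (0.074 when scaled by library totals alone), and 0 passed edgeR while 4 of the 108 had an unadjusted p under 0.05, against 4.85% of all tested genes. The list's summed level was nearly constant, from 11225 to 12584 CPM. By step, large subunit genes were lower in 25 of 38 cases with a median of -0.45, and small subunit genes were higher in 27 of 46 with a median of 0.30, beside 5813 lower and 5333 higher among all tested genes. RNA polymerase I genes of the wider list were lower in 3 cases and higher in 4 (median 0.27), snoRNP genes lower in 4 and higher in 5, and export genes lower in 3 and higher in 5 (median 0.12). For RNA polymerase I and both subunits the medians had the opposite sign to those of the 40 genes (-0.85, -0.23 for the small and 0.03 for the large subunit). Lowest in p among those lower were Ran, the GTPase that drives nuclear transport, at 601 and 1155 CPM against 447, 479 and 443 CPM (log2 fold change -1.04), Pwp2 of the processome at 132 and 163 CPM against 25.8, 48.9 and 37.9 CPM (-2.07), and Noc2l, which shares 598 exonic bases with Samd11 on the opposite strand, at 143 and 436 CPM against 127, 68.0 and 132 CPM (-1.52). Among those higher were the helicase gene Ddx24 at 155 and 165 CPM against 283, 273 and 472 CPM (1.0), Cirh1a, a t-UTP gene mutated in a childhood cirrhosis, at 3.66 and 20.3 CPM against 51.4, 102 and 95.6 CPM (2.68), and Nol6 at 1.20 and 5.69 CPM against 7.08, 81.4 and 60.0 CPM (3.73). In these 6 genes, which were picked by p, the groups did not overlap, and the edgeR adjusted p lay between 0.964 and 0.994. Over the 108 tested genes of the list, groups did not overlap for 17 that were lower and 14 that were higher. Among all tested genes the shares were 11.0% and 9.74%. DESeq2 called 1 gene of the wider list, Taf1c, named here after its values were seen. It had 744 counts for WT 1, 3 for WT 2 and 0 in the other 3 libraries, was left out by edgeR's filter, and shares 584 exonic bases with Dnaaf1 on the opposite strand.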

How the data were processed

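The authors deposited 1 table of raw read counts, with gene symbols as rows and the 5 libraries as columns. The submitters' processing notes name HISAT2 2.2.1 and HTSeq 0.12.4 with the build mm10. Which annotation and strand setting were used, and how reads with several matches were handled, is not given in the sources used here. Smart-seq2 keeps neither strand nor molecule identifiers, so overlapping genes and near-identical copies are uncertain: exons of 9 of the 40 genes overlap those of another gene of the table. Counts were tested in R 4.3.3 with edgeR 4.0.16 (default filter per group, TMM factors, robust quasi-likelihood fit, Benjamini-Hochberg adjustment over all genes tested, threshold 0.05), beside DESeq2 1.42.0 and limma 3.58.1. The edgeR procedure was also run on simulated counts. These were set to vary less than the common coefficient of biological variation of 1.26 found here, so that run does not cover data this variable. Alternatives were other scalings and filters, both tools, a replicate block and left-out libraries. Standard errors come from the F statistic. CPM are counts scaled to a library total of 1000000. Spans, transcript lengths (the APPRIS principal transcript, chosen after lengths over all exons had been seen) and snoRNA genes come from GENCODE M21, matched by symbol for all 40 genes. The genes and lists were chosen with earlier results of these data known. Statistics are given for the 2 tested genes of each step with the smallest unadjusted p, values in every library for those, for genes whose groups did not overlap and for genes with under 10 counts in a library, and from the wider list for the 3 per direction with the smallest p and a mean of at least 10 CPM. That replicates are separate mice is said by the series text, not by the labels.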

Additional observations from a re-analysis of the deposited data

How the results depend on the processing

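Depth and number limit these results: 30 cells a library, 2 and 3 libraries, and a common coefficient of biological variation of 1.26. Under each setting tried, 0 of the 40 genes passed. Over all genes, edgeR called 21 without a filter and, with 1 library left out, from 0 to 1. DESeq2 called 598 on the whole table and 605 on rows with at least 1 count; both were run, the second was added after the data were seen, and the first was kept as the plain default. Each called 1 gene of the wider list, Taf1c in the first. The cause of these and the following differences was not tested.

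The median log2 fold change of the 40 genes ran from -0.41 to 0.22 over the fits without 1 library. It was 0.247 without both libraries that held erythroid transcripts (WT 2 and Ythdf3-/- 1). That of the wider list ran from -0.13 to 0.10, and was 0.074 with library totals alone and 0.10 without both libraries.

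Of the 40 genes, 24 changed sign under some alternative, none of them past the threshold, and 16 did not. With totals alone Nop56 became 0.024 and Ddx21 0.015. In limma voom Polr1a became 1.67, Polr1b -1.57, Nop56 0.0024, Rrp9 -0.94, Bysl -0.36, Ppan -0.24 and Ddx21 0.13. Without both libraries Polr1a became 5.81, Ubtf 0.47, Nop56 0.24, Nolc1 0.16, Utp20 3.15, Heatr1 0.81, Bysl -0.16, Ppan -1.17, Ncl 0.38, Npm1 0.40 and Ddx21 0.25.

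Replicate numbers 1 and 2 recur under both labels, but the labels do not say that they mark a shared litter or day. Deviations of log2 CPM from the label mean, over 11146 genes, correlated at -0.0043 between the libraries numbered 1. Between those numbered 2 they correlated at 0.00939. The 2 libraries labelled WT deviate from their mean by equal and opposite amounts, so a value for one recurs with the opposite sign for the other. With the replicate number as a block 0 genes passed. Number 3 occurs only under the Ythdf3-/- label, so in that fit the library labelled Ythdf3-/- 3 adds no comparison between the labels. The replicate block turned Polr1a to 2.28, Polr1b to -3.44, Rrp9 to -1.74, Utp20 to 0.93, Nop14 to -2.36, Bysl to -0.65 and Ddx21 to 0.20.

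Leaving out 1 library at a time gave log2 fold changes from -2.11 to 5.66 for Polr1a, -1.33 to 0.68 for Polr1b, -1.45 to 0.13 for Polr1e and -1.54 to 0.23 for Ubtf. Among snoRNP genes they ran from -0.27 to 0.14 for Nop56, -0.042 to 0.70 for Nop58, -1.03 to 0.81 for Rrp9, -0.63 to 0.32 for Dkc1, -0.25 to 3.41 for Gar1, -1.43 to 0.12 for Nhp2 and -0.45 to 0.32 for Nolc1. Among small subunit genes they ran from -2.69 to 3.43 for Utp20, -2.84 to 0.27 for Heatr1, -0.77 to 4.21 for Nop14 and -0.45 to 0.43 for Bysl. Among large subunit genes they ran from -1.08 to 0.26 for Bop1, -0.48 to 1.79 for Pes1, -3.00 to 0.35 for Nop2, -0.41 to 0.30 for Nop16, -0.75 to 1.89 for Mrto4 and -0.66 to 1.54 for Ppan. Those of Ncl ran from -0.94 to 0.38, of Npm1 from -1.64 to 0.36 and of Ddx21 from -0.66 to 0.88. Rrp12 was not tested under the stricter filter or without Ythdf3-/- replicate 2.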
